A study of Mus musculus with 24 samples.

Results

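The genes of the voltage-gated calcium and sodium channels were followed in RNA sequencing of mouse pancreatic islets in which Cop1, or Cop1 together with Etv genes, was deleted. Members were all rows whose NCBI Gene number maps to a mouse symbol that begins with Cacna, Cacnb or Cacng, or with Scn and a digit. This gave 39 of the 28059 genes in the table. They fall into 10 calcium channel pore genes, 4 alpha2delta genes, 4 calcium channel beta genes, 7 gamma genes, 10 sodium channel pore genes and 4 sodium channel beta genes. Of the 39, 20 reached at least 1 RPKM in at least 4 libraries and were tested, and 19 did not and are listed as low. RPKM counts the reads of a gene per kilobase of its length, scaled to the total reads of the library.

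A voltage-gated calcium channel is built on a pore-forming subunit that opens when the membrane depolarises. Auxiliary beta and alpha2delta subunits govern how much of the pore protein reaches the cell surface and how it gates. In beta cells, closure of ATP-sensitive potassium channels depolarises the membrane, calcium enters through these channels, and insulin granules fuse with the membrane. Voltage-gated sodium channels carry the fast upstroke of the action potential, and islet cells also use them. COP1 is a ubiquitin ligase whose known substrates include the ETS-family transcription factors ETV1, ETV4 and ETV5.

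All islets came from mice aged 3 to 4 months on a mixed background and were cultured and picked by hand. In set 1, 4 libraries are labelled Cop1fl/fl with Etv1fl/fl, Etv5fl/fl and Etv4ko/ko, together with Pdx1.CreERT2 (Etv1/4/5 group), 3 are Cop1 fl/fl with Pdx1.CreERT2 (Cop1 deletion) and 3 are Cop1 fl/fl without Cre (control). In set 2, 4 libraries are labelled Cop1fl/fl with Etv5fl/fl and Etv4ko/+, together with Pdx1.CreERT2 (Etv4/5 group, with 1 intact Etv4 allele), 4 are Cop1 fl/fl with Pdx1.CreERT2 and 4 are Cop1 fl/fl controls. All 6 groups thus carry floxed Cop1, and every deletion group carries a tamoxifen-inducible Cre driven by Pdx1, a gene of beta cells and of some other islet and pancreatic cells. By their labels the controls carry no Cre, so an effect of Cre and an effect of Cop1 loss cannot be told apart. Whole islets also hold cells that the Cre does not reach, and in such bulk RNA fewer cells of a type and less RNA per cell cannot be told apart.

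Cop1 averaged 0.893 ± 0.141 RPKM in the Etv1/4/5 group, 1.04 ± 0.0786 in Cop1 deletion islets and 1.44 ± 0.186 in controls of set 1 (SD, n = 4, 3 and 3). In set 2 it averaged 0.816 ± 0.0454 in the Etv4/5 group, 0.875 ± 0.0781 in Cop1 deletion islets and 1.64 ± 0.194 in controls (n = 4 each). Etv4 went against the label in set 1, at 1.26 ± 0.298 RPKM in the Etv1/4/5 group, against 0.0646 ± 0.0115 in Cop1 deletion islets and 0.0728 ± 0.0397 in controls. Etv1 and Etv5 were no lower in that group than in Cop1 deletion islets, and a value over a whole gene does not show which exons were lost, so the Etv groups are named here by their labels only. Esr1, part of which is in the CreERT2 fusion, stood at 44.0 RPKM or more in the libraries with Cre and below 1 RPKM in the controls, except for 99.1 RPKM in replicate 2 of the set 1 controls. In set 2, replicates 2 and 3 of the Cop1 deletion group lay apart from the others on the second principal component. They also lacked Xist, a transcript of female cells, which all 4 set 2 controls had. Replicates 1 and 3 of the Etv4/5 group lacked Xist too, at 0.0357 and 0.0263 RPKM, but did not lie apart. In set 2, sex and genotype are thus partly mixed in each comparison with control. Each group of set 1 held libraries with and without Xist. Control replicate 4 of set 2 also stood away from its group. On the second principal component of set 2 alone it lay at 48.4, against 5.28 to 9.83 in the other controls. Its summed RPKM, 524289, was the lowest of all libraries. The defining hormone genes of the islet were abundant, with Ins1 and Ins2 together at 21.0% to 41.1% of a library's summed RPKM.

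For the genes whose promoters could be matched, the sequence around the start site shows what the search for ETS-type motifs read. A table of RefSeq promoters on GRCm38.p6, each covering 250 bases before and 50 bases after a start, held 29 of the 39 channel genes. Scn3a was not among them. The letters CCGGAAG, an ETS-type site, were searched on both strands and were found in 0 of the 29, against 2683 of 27025 genes (9.93%). The shorter core GGAA, chosen after that search gave no match and also counted on both strands, was found in 96.5% of all genes, with a median of 3 matches per gene. These promoters were richer in G and C, with a median of 61% over the 29 channel genes, against 52.7% over all genes. The values for all genes leave out 1 chromosome, which holds no channel gene. For a gene with several starts, the match count is the highest over them, and the G and C share is that of the first listed. The promoters below belong to Scn9a and Scn2a, which were higher after Cop1 deletion, and to Cacna2d2, which was lower, and capitals mark GGAA or its reverse complement TTCC.
Scn9a, chr2:66634913-66635212, minus strand: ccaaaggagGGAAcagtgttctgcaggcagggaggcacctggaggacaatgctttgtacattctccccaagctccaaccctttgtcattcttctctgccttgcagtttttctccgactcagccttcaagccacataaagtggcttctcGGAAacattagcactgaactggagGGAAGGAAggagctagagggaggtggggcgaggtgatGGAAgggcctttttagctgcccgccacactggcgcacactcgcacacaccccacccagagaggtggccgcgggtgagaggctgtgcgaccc
Scn2a, chr2:65668436-65668735, plus strand: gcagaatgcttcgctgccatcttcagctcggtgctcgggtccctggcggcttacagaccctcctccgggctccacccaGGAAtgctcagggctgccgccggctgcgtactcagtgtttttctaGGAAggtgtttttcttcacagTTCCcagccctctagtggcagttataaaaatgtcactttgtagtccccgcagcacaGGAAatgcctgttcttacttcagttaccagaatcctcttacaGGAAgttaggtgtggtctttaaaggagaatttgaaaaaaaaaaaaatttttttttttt
Cacna2d2, chr9:107399630-107399929, plus strand: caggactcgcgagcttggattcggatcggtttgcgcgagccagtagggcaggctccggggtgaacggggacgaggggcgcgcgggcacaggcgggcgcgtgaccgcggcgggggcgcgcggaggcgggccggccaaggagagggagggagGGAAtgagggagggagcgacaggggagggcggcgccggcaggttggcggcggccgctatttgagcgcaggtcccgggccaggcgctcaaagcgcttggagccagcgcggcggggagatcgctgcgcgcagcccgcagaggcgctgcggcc
The Scn9a promoter held 5 core matches, that of this Scn2a start 5 and that of Cacna2d2 1. Among genes not called, Cacnb3 held 7 and 5 at its 2 starts, Scn7a 5, and Scn8a 0 and 4 at its 2 starts. The table lists a second Scn2a start, whose promoter at chr2:65620519-65620818 held 2. A match of letters is no evidence of binding.

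Islets expressed a calcium channel set led by a few genes in every group. Cacna2d1, the main alpha2delta gene, averaged 22.5 to 28.9 RPKM over the 6 groups, and Cacnb3, a beta subunit gene, 20.3 to 24.6 RPKM. Within a library, Cacna2d1 was higher than Cacnb3 in all 4 libraries of the Etv4/5 group, while in each of the other groups either gene could be the higher. Among pore genes, Cacna1d, which encodes an L-type channel, averaged 13.2 to 17.9 RPKM and Cacna1a, which encodes the P/Q-type channel, 8.78 to 13 RPKM. Cacna1c, the other L-type pore of islets, averaged 5.83 to 10.4 RPKM. Cacna2d3, an alpha2delta gene, averaged 0.735 to 1.14 RPKM, and the low alpha2delta genes Cacna2d2 and Cacna2d4 are described below.

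Further pore genes were much lower. Cacna1b, the N-type pore, averaged 1.07 to 1.84 RPKM, and Cacna1h, a T-type pore, 1.1 to 1.32 RPKM. Cacna1e, the R-type pore that is well known from mouse beta cells, did not exceed 0.105 RPKM in any library and was not tested. The T-type genes Cacna1g and Cacna1i reached at most 1.02 and 0.317 RPKM, and the muscle gene Cacna1s at most 0.0619 RPKM.

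Of the other beta subunit genes, Cacnb2 averaged 7.27 to 9.75 RPKM, Cacnb1 3.98 to 5.36 RPKM, and Cacnb4 stayed at or below 0.698 RPKM. Among gamma genes, whose products include partners of AMPA-type glutamate receptors, Cacng4 averaged 0.905 to 2.03 RPKM and Cacng7 1.32 to 2.86 RPKM. The low gamma genes were Cacng2, Cacng3, Cacng1, Cacng6 and Cacng5, with highest values of 0.40, 0.311, 0.251, 0.123 and 0.0632 RPKM.

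In the deletion groups, sodium channel pore RNA came mainly from Scn9a and Scn3a. Controls were led by Scn9a, while Scn8a averaged 2.41 RPKM against 2.22 for Scn3a in set 1, and 2.39 against 2.78 in set 2. Scn9a averaged 4.23 to 8.86 RPKM and Scn3a 2.22 to 14.1 RPKM, with Scn8a at 2.24 to 2.49 RPKM. Scn7a, which encodes a channel gated by sodium concentration and not by voltage, was at 1.63 to 2.02 RPKM in the 3 groups of set 1 but at 0.245 to 0.611 RPKM in those of set 2. Among the low pore genes, the highest values were 0.861 RPKM for Scn2a, 0.366 for Scn4a, 0.162 for Scn11a, 0.114 for Scn1a and 0.00313 for Scn10a. Of the sodium beta genes, Scn3b averaged 0.993 to 2.09 RPKM, while Scn2b and Scn4b reached at most 0.837 and 0.220 RPKM.

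**Figure D1:**
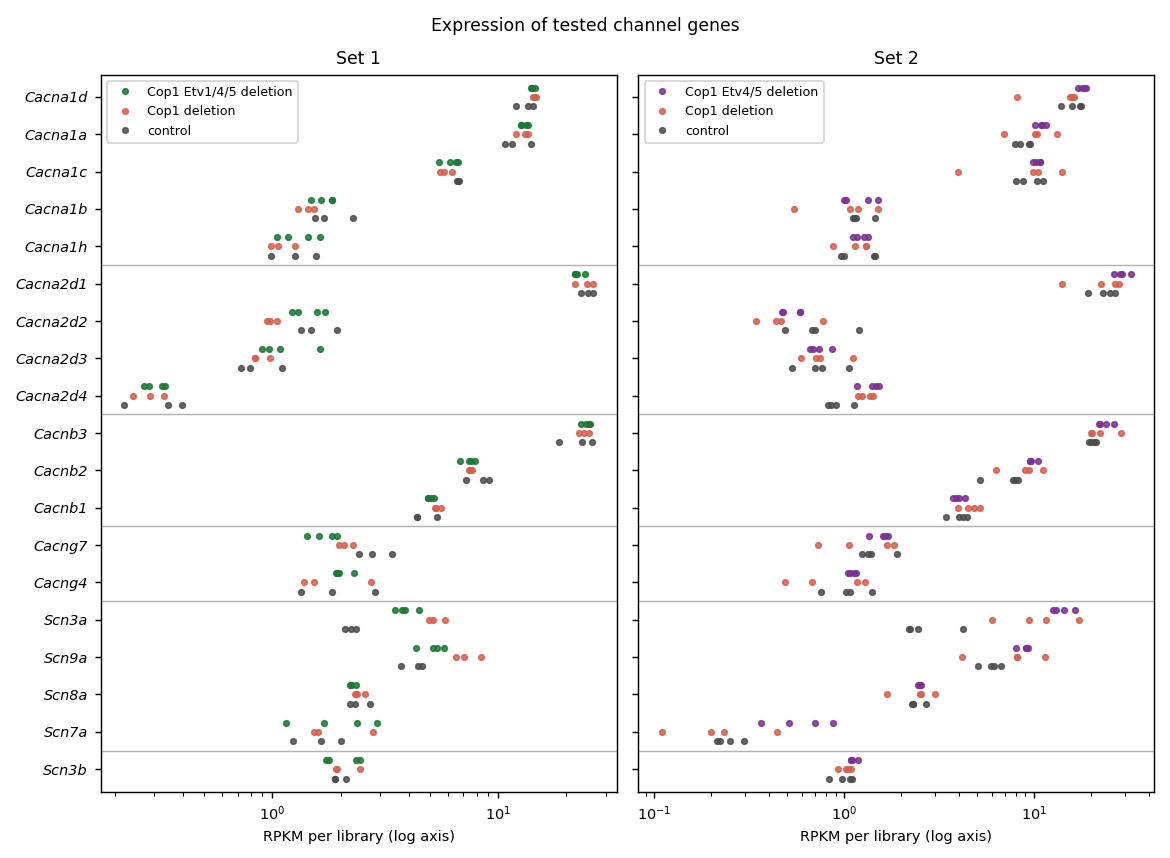
RPKM of tested channel genes on a log axis, set 1 on the left and set 2 on the right, with 1 point per library and colours for the groups. Cacna2d1 and Cacnb3 stand at the right in both sets, and Scn3a is the gene whose control points lie clearly to the left of the deletion points in both sets.

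In Cop1 deletion islets the sodium channel genes Scn3a and Scn9a rose against control, and Cacna2d2, which encodes an auxiliary calcium channel subunit, fell, in the mean of the differences within each set. A gene is called when its adjusted p from limma, by the Benjamini-Hochberg method over all 14342 genes tested, is below 0.05, and changes are given on the scale of log2(RPKM + 0.5). In all, 4 members were called, which is 20% of the tested members, beside 20.1% of all genes tested (9.57% higher and 10.5% lower), so as a group the channel genes were called as often as other genes. Their median log2 change was 0.02, and that of all genes tested was -0.02. None of the 5 tested pore genes of calcium channels was called, and their mean changes lay between -0.22 for Cacna1b and 0.13 for Cacna1a. Dcp1a, a gene that overlaps Cacna1d on the opposite strand, fell (mean log2 change -0.42, limma adjusted p = 0.00021). Dcp1b, which overlaps Cacna1c on the opposite strand, was not called (-0.02, limma adjusted p = 0.84). Reads of these pairs may be mixed, since the strand setting is not stated, and this was not tested.

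**Figure D2:**
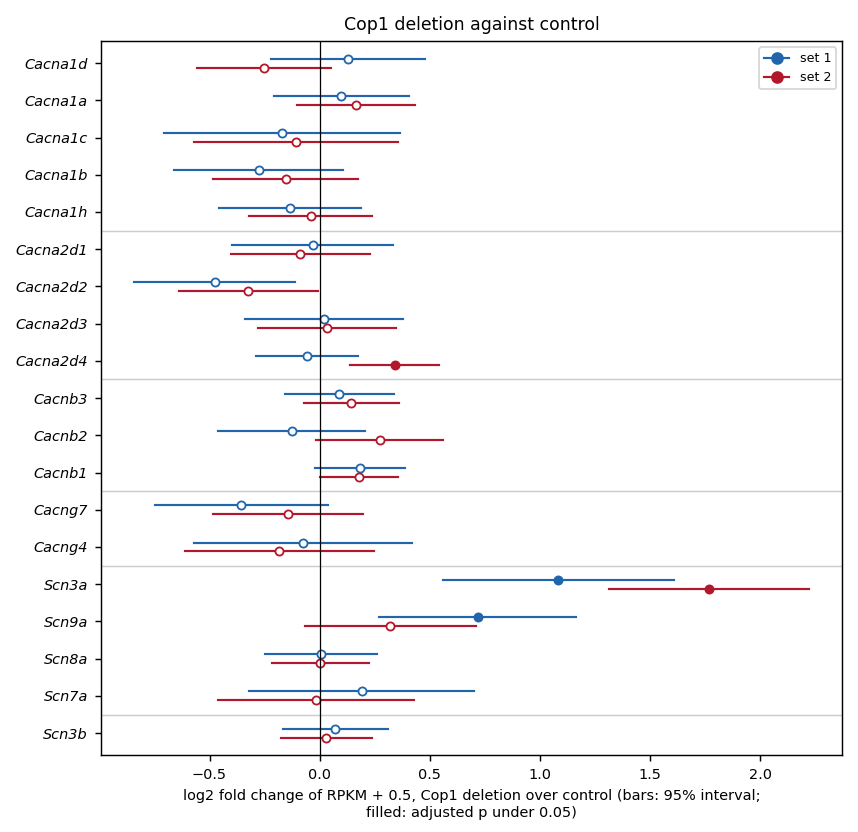
Log2 fold change of tested channel genes in Cop1 deletion over control islets, for set 1 and set 2, with 95% intervals and filled points for adjusted p below 0.05. Scn3a lies far to the right in both sets, at 1.08 and 1.77, and the calcium channel pore genes lie near 0.

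Scn3a, a sodium channel pore gene of neurons and endocrine cells, changed most. In set 1 it measured 5.77, 4.91 and 5.13 RPKM in Cop1 deletion islets, against 2.09, 2.34 and 2.23 RPKM in controls. In set 2 it measured 9.39, 6.0, 17.3 and 11.5 RPKM in Cop1 deletion islets, against 2.19, 2.23, 2.46 and 4.23 RPKM in controls. The groups did not overlap in either set, and the deletion libraries of set 2 spread widely, with replicate 3 highest and replicate 2 lowest. The ratio of means was 2.37 in set 1 and 3.98 in set 2. The log2 change was 1.08 in set 1 (95% interval 0.56 to 1.61, limma adjusted p = 0.0092) and 1.77 in set 2 (1.31 to 2.22, adjusted p = 1.8e-05). Calls of all genes in these comparisons covered 8.33% in set 1, where 3 of 20 members were called, and 18.8% in set 2, where 2 of 20 were. No member's change differed between the sets past the threshold (0 of 20 by limma, beside 2.83% of all genes). For Scn3a the comparison missed it (difference of set 1 minus set 2 -0.68, 95% interval -1.38 to 0.01, limma adjusted p = 0.30). Without the pair of set 2 libraries that lay apart, Scn3a changed by 1.78 in set 2 (limma adjusted p = 5.8e-06). Without set 1 control replicate 2, the library with Esr1 at the level of the Cre groups, it changed by 1.11 in set 1 (limma adjusted p = 0.022).

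Scn9a, the sodium channel pore gene with the highest mean in controls of both sets, measured 6.47, 7.01 and 8.40 RPKM in set 1 Cop1 deletion islets, against 3.70, 4.40 and 4.6 RPKM in controls. These groups did not overlap. In set 2 the values were 8.14, 4.17, 11.5 and 8.08 RPKM in Cop1 deletion islets, against 5.93, 5.04, 6.17 and 6.68 RPKM in controls. There replicate 2 of the deletion group fell below every control and the other 3 stood above. The log2 change was 0.72 in set 1 (95% interval 0.27 to 1.17, limma adjusted p = 0.044), 0.32 in set 2 (-0.07 to 0.71, adjusted p = 0.24) and 0.52 in the mean (0.22 to 0.82, adjusted p = 0.014). The set 1 call sat close to the threshold and was lost when any of its 6 Cop1 deletion and control libraries was left out, with adjusted p up to 0.16. The set 2 change was 0.42 without the pair of libraries that lay apart (limma adjusted p = 0.029) and 0.58 without replicate 2 alone (adjusted p = 0.0036). Gm13629, a gene on the strand opposite to Scn9a that overlaps it, averaged 1.88 and 1.81 RPKM in Cop1 deletion islets, against 1.2 and 1.49 RPKM in controls (set 1 and set 2), and was not called (mean log2 change 0.29, limma adjusted p = 0.29). The sources do not state whether reads were counted by strand, so reads of Scn9a and Gm13629 may be mixed.

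Scn2a, the gene next to Scn3a in the annotation, stayed below the level needed for testing. It was also higher in Cop1 deletion islets than in controls, and was named after its values were seen. It measured 0.267, 0.292 and 0.297 RPKM in set 1 Cop1 deletion islets, against 0.112, 0.111 and 0.158 RPKM in controls. In set 2 it measured 0.248, 0.249, 0.486 and 0.416 RPKM in Cop1 deletion islets, against 0.0787, 0.0386, 0.0758 and 0.140 RPKM in controls. Neither set showed overlap between the groups. With no filter on low values it rose by 0.53 in set 2 (limma adjusted p = 0.0017), with a value of 0.32 in set 1 (adjusted p = 0.12). Scn1a and Scn7a lie beside Scn9a on the same chromosome, 2. Scn7a changed by 0.09 in the mean (limma adjusted p = 0.75), and Scn1a averaged 0.0851 RPKM in Cop1 deletion islets and 0.0803 RPKM in controls of set 1.

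The make-up of sodium channel pore RNA shifted with Scn3a. The summed RPKM of the 10 pore genes averaged 17.5 ± 1.02 in Cop1 deletion islets and 10.8 ± 0.667 in controls of set 1 (SD, n = 3 each), and 22.4 ± 8.21 and 11.7 ± 1.57 in those of set 2 (n = 4 each). In set 2, Scn3a made up 48.8% ± 3.84 of that sum in Cop1 deletion islets and 23.2% ± 4.71 in controls. In set 1 its share was 30.1% ± 1.59 in Cop1 deletion islets and 20.6% ± 0.30 in controls. The share of Scn8a, another neuronal pore gene, was 13.8% ± 0.641 in Cop1 deletion islets and 22.4% ± 2.58 in controls of set 1, while its own level barely moved (mean log2 change 0.00, limma adjusted p = 0.98). By contrast, the summed calcium pore genes averaged 36.7 ± 0.993 RPKM in Cop1 deletion islets and 36.1 ± 2.98 RPKM in controls of set 1, and 36.6 ± 10.9 and 37.9 ± 2.47 RPKM in those of set 2.

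**Figure D3:**
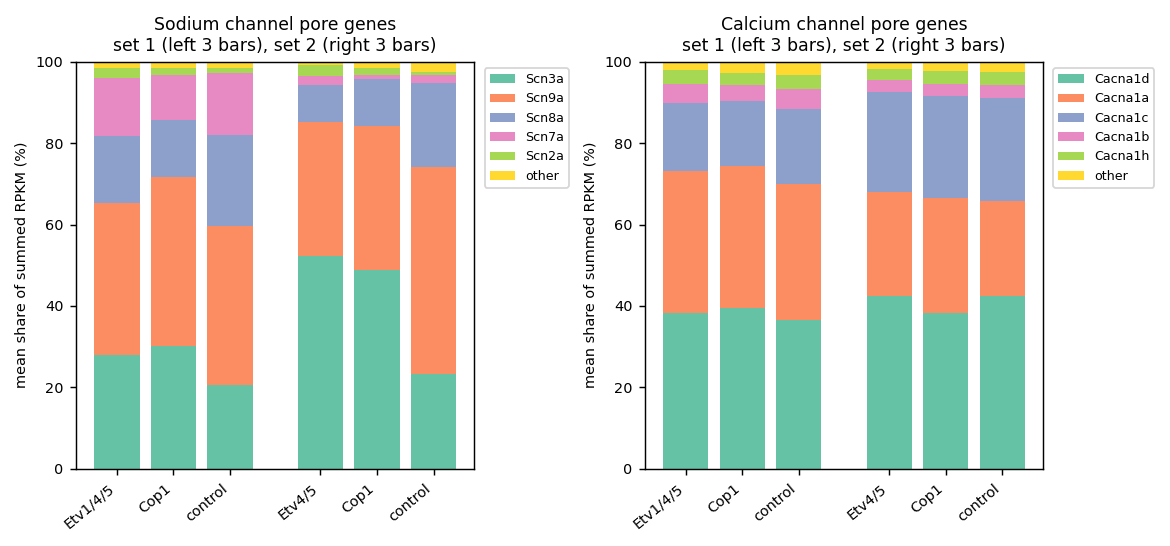
Mean share of each pore gene in the summed RPKM of the sodium channel pore genes (left) and the calcium channel pore genes (right), by group, as stacked bars. Scn3a fills 48.8% of the sodium bar in set 2 Cop1 deletion islets and 23.2% in controls, while the calcium bars keep a similar make-up across the groups of a set.

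Cacna2d2 and Cacna2d4 are alpha2delta genes with low levels in islets. Cacna2d2 measured 0.98, 0.947 and 1.04 RPKM in set 1 Cop1 deletion islets, against 1.49, 1.33 and 1.93 RPKM in controls. The set 2 values were 0.776, 0.342, 0.465 and 0.437 RPKM in Cop1 deletion islets, against 0.679, 0.489, 1.2 and 0.701 RPKM in controls. The groups stood apart in set 1 and overlapped in set 2. The mean log2 change was -0.40 (95% interval -0.64 to -0.16, limma adjusted p = 0.019), and neither set alone passed (adjusted p = 0.11 and 0.14). The call was lost without set 1 control replicate 3 (limma adjusted p = 0.057) and without the pair of set 2 libraries that lay apart (adjusted p = 0.069), and was -0.44 without set 1 control replicate 2 (adjusted p = 0.018). In set 2 alone the gene passed without Cop1 deletion replicate 1 (-0.44, limma adjusted p = 0.039).

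Cacna2d4 was called in set 2 and not in set 1, a difference that did not itself pass (-0.40, limma adjusted p = 0.17). It reached 1 RPKM in 9 libraries, which were all deletion libraries of set 2 and control replicate 3 of that set. The gene thus entered the tests through the groups where it was high, so its set 2 calls are not independent of the filter. It measured 1.18, 1.24, 1.41 and 1.37 RPKM in set 2 Cop1 deletion islets, against 0.853, 0.818, 1.12 and 0.908 RPKM in controls, without overlap. In set 1 it measured 0.288, 0.242 and 0.329 RPKM in Cop1 deletion islets, against 0.345, 0.220 and 0.398 RPKM in controls, with overlap. The log2 change was 0.34 in set 2 (95% interval 0.14 to 0.54, limma adjusted p = 0.019) and -0.06 in set 1 (adjusted p = 0.86). The set 2 call was lost without control replicate 1 (limma adjusted p = 0.056), without control replicate 2 (0.063) and without the pair of libraries that lay apart (0.10). Lrtm2, a gene that overlaps Cacna2d4 on the opposite strand, was named after its values were seen. It averaged 7.75 ± 0.965 RPKM in Cop1 deletion islets and 3.97 ± 1.36 RPKM in controls of set 2 (SD, n = 4 each) and rose by 0.92 (limma adjusted p = 0.00051). In set 1 it averaged 2.26 RPKM in the Etv1/4/5 group, 0.985 in Cop1 deletion islets and 1.44 in controls. There it was 0.91 higher in the Etv1/4/5 group than in Cop1 deletion islets (limma adjusted p = 0.0023), while Cacna2d4 averaged 0.303 and 0.286 RPKM in these groups. Its part in the Cacna2d4 values was not tested.

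**Figure D4:**
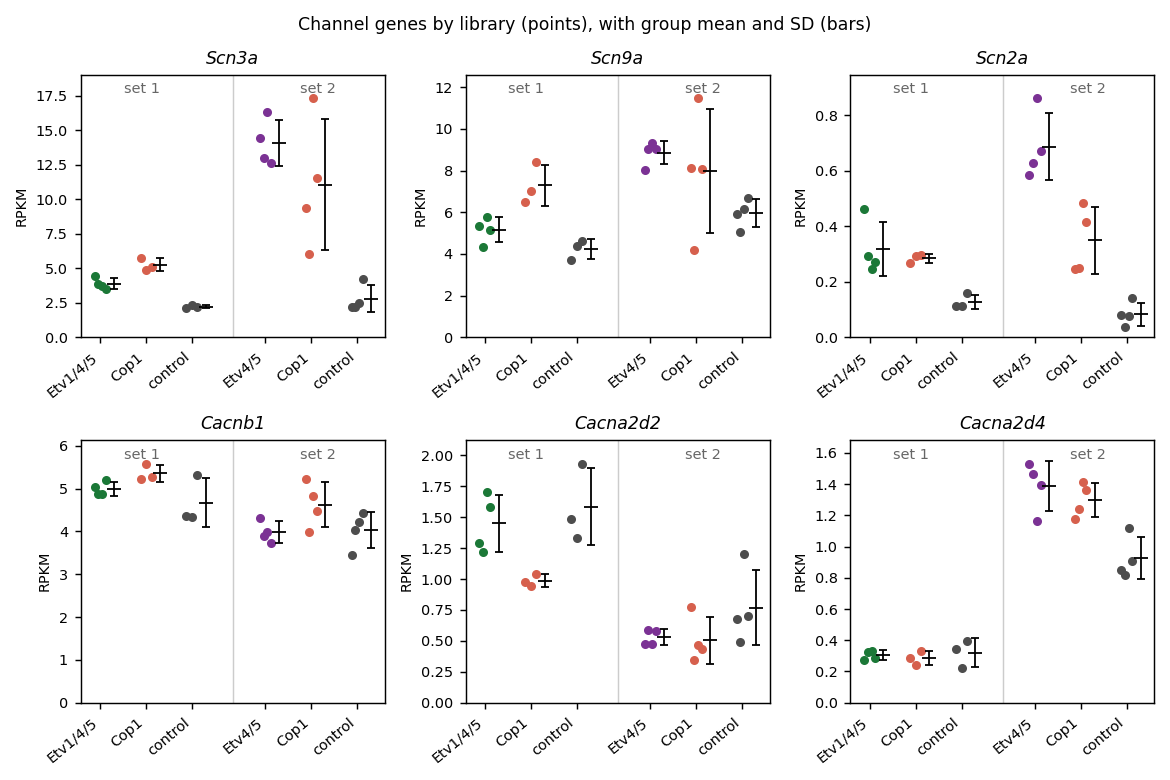
RPKM by library for Scn3a, Scn9a, Scn2a, Cacnb1, Cacna2d2 and Cacna2d4, with points for libraries and bars for the group mean and SD, set 1 left and set 2 right of the line in each panel. The Scn3a points of every Cop1 deletion library lie above those of the controls of the same set, and Scn2a follows the same order at a much lower level.

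Of the uncalled calcium channel members, Cacnb1 came closest to the threshold in the mean of the sets. It had a mean log2 change of 0.18 (95% interval 0.05 to 0.32, limma adjusted p = 0.054). It passed without set 1 control replicate 3 (limma adjusted p = 0.019), set 2 Cop1 deletion replicate 2 (0.014) or set 2 control replicate 4 (0.028). Replicate 2 of the set 2 Cop1 deletion group had the lowest value of its group for Cacna1a (6.90 RPKM), Cacna1c (3.98), Cacna1d (8.14) and Cacna2d1 (14), and the highest for Cacnb3 (28.6). Without that replicate, Cacna1a was called in set 2 at 0.33 (limma adjusted p = 0.024) and Cacnb2 at 0.42 (adjusted p = 0.020). Below the filter, Cacnb4 and Cacna1f, an L-type pore gene known from the retina, passed in the mean of the sets when no filter was applied (limma adjusted p = 0.0062 and 0.00014), again as named after their values were seen. Cacna1f measured 0.267 to 0.298 RPKM in set 1 Cop1 deletion islets, against 0.0739 to 0.0905 RPKM in controls, and 0.0925 to 0.189 against 0.0868 to 0.135 RPKM in set 2. Its change differed between the sets (0.36, limma adjusted p = 0.0085 with no filter). For Cacnb4, the set 1 values were 0.568 to 0.698 RPKM in Cop1 deletion islets and 0.332 to 0.425 RPKM in controls (0.37, limma adjusted p = 0.013 with no filter). Its set 2 values overlapped, at 0.296 to 0.481 and 0.215 to 0.336 RPKM (0.125, limma adjusted p = 0.32 with no filter). Cacng3, a gamma gene, averaged 0.0771 ± 0.0132 RPKM in Cop1 deletion islets and 0.210 ± 0.0892 RPKM in controls of set 2 (SD, n = 4 each), without overlap, and fell there (-0.29, limma adjusted p = 0.043 with no filter). In set 1, Cacng3 averaged 0.186 RPKM in Cop1 deletion islets and 0.0879 RPKM in controls (0.23, limma adjusted p = 0.26).

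With the Etv1/4/5 label added to Cop1 deletion in set 1, 0 of 20 members were called by limma against Cop1 deletion alone, beside 6.34% of all genes. Directions here follow the labels, which the Etv4 level of this group went against. Scn3a stood at 4.47, 3.87, 3.73 and 3.48 RPKM in the Etv1/4/5 group, against 5.77, 4.91 and 5.13 RPKM in Cop1 deletion islets and 2.09, 2.34 and 2.23 RPKM in controls. The Etv1/4/5 libraries thus lay between the other groups without overlap. The log2 change against Cop1 deletion was -0.40 (95% interval -0.89 to 0.09, limma adjusted p = 0.40), and that against control was 0.69 (0.20 to 1.18, adjusted p = 0.22). The comparison with control passed without the pair of set 2 libraries that lay apart (limma adjusted p = 0.024) and with set 1 libraries alone (0.0037). Scn2a averaged 0.318 RPKM in the Etv1/4/5 group, 0.285 in Cop1 deletion islets and 0.127 in controls. It overlapped Cop1 deletion (log2 change 0.05, limma adjusted p = 0.96 with no filter). Scn9a stood at 5.36, 4.34, 5.76 and 5.15 RPKM in the Etv1/4/5 group, below every Cop1 deletion library, and had a log2 change of -0.46 (-0.88 to -0.04, limma adjusted p = 0.21). When the spread was estimated from set 1 libraries alone, both genes passed against Cop1 deletion (limma adjusted p = 0.018 for Scn3a and 0.024 for Scn9a). Scn9a also passed without set 2 Cop1 deletion replicate 2 (limma adjusted p = 0.022), a library that enters this comparison only through the estimate of the spread.

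The alpha2delta genes were not called against Cop1 deletion either. Cacna2d2 stood at 1.29, 1.22, 1.70 and 1.58 RPKM in that group, against 0.98, 0.947 and 1.04 RPKM in Cop1 deletion islets, without overlap (log2 change 0.38, 95% interval 0.04 to 0.72, limma adjusted p = 0.20). Cacna2d4 stood at 0.271, 0.326, 0.334 and 0.284 RPKM in the Etv1/4/5 group, within the range of the controls. Cacna1f averaged 0.130 ± 0.0271 RPKM in the Etv1/4/5 group and 0.278 ± 0.0173 RPKM in Cop1 deletion islets (SD, n = 4 and 3), with a log2 change of -0.31 when no filter was applied (limma adjusted p = 0.00076). Against control, 0 of 20 members were called in the Etv1/4/5 group by limma, beside 1.32% of all genes. Cacng7 stood at 1.70 ± 0.227 RPKM in the Etv1/4/5 group and 2.86 ± 0.489 RPKM in controls (log2 change -0.60, limma adjusted p = 0.13).

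**Figure D5:**
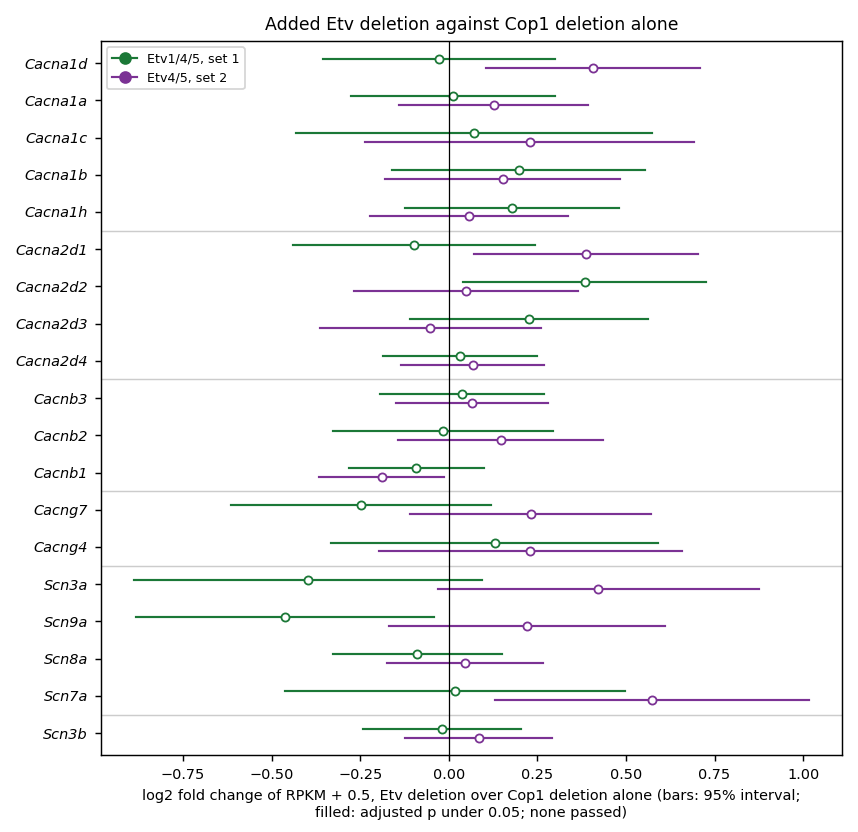
Log2 fold change of tested channel genes in the Etv groups over Cop1 deletion alone, with 95% intervals, for set 1 (Etv1/4/5) and set 2 (Etv4/5). No point is filled because none passed, and Scn3a stands at -0.40 in set 1 and 0.42 in set 2.

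In set 2, where the added alleles are Etv4ko/+ and Etv5fl/fl, Scn3a was not lower than in Cop1 deletion alone. It measured 14.4, 13, 16.3 and 12.6 RPKM in the Etv4/5 group, against 9.39, 6.0, 17.3 and 11.5 RPKM in Cop1 deletion islets and 2.19, 2.23, 2.46 and 4.23 RPKM in controls. The Etv4/5 libraries lay within the upper range of the Cop1 deletion libraries and far above every control. The log2 change was 0.42 against Cop1 deletion (95% interval -0.03 to 0.88, limma adjusted p = 0.24) and 2.19 against control (1.73 to 2.64, adjusted p = 2.9e-06). Without the pair of Cop1 deletion libraries that lay apart, the change against Cop1 deletion was 0.41 (limma adjusted p = 0.36). The set 1 and set 2 changes of the Etv groups were not tested against each other, and the alleles of these groups differ. Against Cop1 deletion, 0 of 20 members were called by limma, beside 1.73% of all genes. The members with the smallest p-values were Cacna1d (log2 change 0.41, limma adjusted p = 0.13), Scn7a (0.57, 0.14), Cacna2d1 (0.39, 0.15) and Cacnb1 (-0.19, 0.19).

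Against control, 2 of 20 members were called in the Etv4/5 group, Scn3a and Cacna2d4, beside 8.74% of all genes. As said above, Cacna2d4 passed the filter through the deletion groups of set 2, where it was high. Cacna2d4 measured 1.53, 1.47, 1.17 and 1.39 RPKM in the Etv4/5 group, against 0.853, 0.818, 1.12 and 0.908 RPKM in controls, without overlap (log2 change 0.41, 95% interval 0.21 to 0.61, limma adjusted p = 0.011). Lrtm2 averaged 8.42 ± 0.582 RPKM in the Etv4/5 group and 3.97 ± 1.36 RPKM in controls (log2 change 1.04, limma adjusted p = 0.00027). Scn9a measured 8.05, 9.05, 9.32 and 9.02 RPKM in the Etv4/5 group, above every control (log2 change 0.54, limma adjusted p = 0.079). That gene was called without Cop1 deletion replicate 2 (limma adjusted p = 0.0041), a library outside this comparison, and Cacna1a, Cacna2d1 and Cacnb2 then passed as well. It also passed without Cop1 deletion replicate 3 (limma adjusted p = 0.033). Cacna2d2 measured 0.472, 0.585, 0.476 and 0.582 RPKM in the Etv4/5 group, overlapping the controls. Scn2a measured 0.586, 0.628, 0.861 and 0.673 RPKM in the Etv4/5 group, above every Cop1 deletion library. With no filter on low values it rose by 0.49 against Cop1 deletion (limma adjusted p = 0.029) and by 1.02 against control (adjusted p = 4.9e-06).

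Other genes that act on these channels moved in part. Of 27 listed modulators 20 were tested, and in the mean of the sets 2 rose and 3 fell in Cop1 deletion islets, a share of 5 in 20 beside the 20.1% of all genes. The median change of the list was -0.09. Nedd4l, a ubiquitin ligase known to act on sodium channels, rose by 0.27 (limma adjusted p = 0.00022). Rem2, a small GTPase that binds calcium channel beta subunits and lowers calcium current, averaged 8.12 RPKM in Cop1 deletion islets and 13.5 RPKM in controls of set 1 (log2 change -0.71, limma adjusted p = 0.0053). In set 2, Rem2 averaged 2.67 RPKM in Cop1 deletion islets and 2.76 RPKM in controls. It was called in the mean of the sets. By limma's test of the difference between sets, 0 of the 20 tested modulators were called, Rem2 included, beside 2.83% of all genes. Rrad, of the same GTPase family, averaged 4.28 RPKM in Cop1 deletion islets and 8.78 RPKM in controls of set 1 (limma adjusted p = 0.049).

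Of 26 other channel genes of electrical activity, 25 were tested, and 3 rose and 6 fell in the mean of the sets. Of all genes tested, 9.57% rose and 10.5% fell. Trpm5, a calcium-activated cation channel, averaged 8.31 RPKM in Cop1 deletion islets and 39.8 RPKM in controls of set 1, and 1.16 and 5.62 RPKM in those of set 2. Kcnk16, a background potassium channel, averaged 44.4 RPKM in Cop1 deletion islets and 91.7 RPKM in controls of set 2 (log2 change -1.04, limma adjusted p = 3.2e-06). Abcc8, the sulfonylurea receptor of the ATP-sensitive potassium channel, rose by 0.48 in set 1 (limma adjusted p = 0.00093), with a change of 0.01 in set 2. Of 22 genes of exocytosis, 21 were tested, and 1 rose and 3 fell, beside the same shares of all genes. Sytl4, a granule protein gene, averaged 37.6 RPKM in Cop1 deletion islets and 116 RPKM in controls of set 1, and 23.9 and 89.9 RPKM in those of set 2. Syt13, a synaptotagmin gene, rose by 0.38 in the mean (limma adjusted p = 7.9e-06). In the Etv groups against Cop1 deletion, Trpm5 was 1.58 higher in set 1 (limma adjusted p = 0.0026) and Sytl4 1.04 higher in set 1 and 0.72 higher in set 2 (adjusted p = 0.0010 and 0.032).

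Markers of islet cell types moved with Cop1 deletion as well. Beside the counts below, 9.57% of all genes tested rose and 10.5% fell in the mean of the sets. Of 10 beta cell markers 6 fell and 1 rose in the mean of the sets, and their summed RPKM was 217417 to 238323 in Cop1 deletion islets, against 264585 to 299316 in controls of set 1. In set 2 that sum was 165861 to 243710 in Cop1 deletion islets, against 167520 to 232760 in controls. Although these sums overlapped, 6 of the 10 beta markers fell and 1 rose in set 2, beside 18.8% of all genes called there. In set 1, 6 fell and 0 rose, beside 8.33% of all genes called. The list's median log2 change was -0.71 in the mean, -0.86 in set 1 and -0.57 in set 2. Of 8 alpha cell markers 1 fell, and of 7 tested endothelial and 7 tested muscle or pericyte markers 0 were called. Of 5 tested delta cell markers 2 fell, and both tested markers of PP cells rose. Of 10 acinar markers 0 were called, but their median log2 change was 0.98 in the mean, 0.49 in set 1 and 1.47 in set 2. Acinar sums were 3704 to 11620 RPKM in Cop1 deletion islets and 2600 to 7148 RPKM in controls of set 1. In set 2 they were 3751 to 21628 and 743 to 10992 RPKM. Against Cop1 deletion, the acinar median in the Etv4/5 group was -1.94. The summed PP markers were 6609 to 8717 RPKM in Cop1 deletion islets, against 1854 to 3502 RPKM in controls of set 1, and 7047 to 19022 against 4121 to 6515 RPKM in set 2. Of 8 tested immune markers 1 rose, with sums of 113 to 173 RPKM in Cop1 deletion islets, against 71.3 to 79.9 RPKM in controls of set 1, and 150 to 272 against 54.0 to 97.7 RPKM in set 2. Of 6 tested duct markers 2 rose, with sums of 241 to 300 against 155 to 197 RPKM in set 1 and 2520 to 4055 against 1065 to 1546 RPKM in set 2. Taken by set, the only immune marker called in set 1 was C1qa, and the list had a median log2 change of 0.05. Spp1 was the only duct marker called there (list median 0.23). Set 2 had higher list medians, 0.93 for immune markers (C1qa and C1qb called) and 0.97 for duct markers (Krt7 and Spp1 called). How far single genes carried these sums was not tested. In the Etv1/4/5 group the sums were 2589 to 6571 RPKM for PP, 162 to 188 for duct and 70.2 to 100.3 for immune markers, and in the Etv4/5 group 7125 to 8171, 957 to 2572 and 125 to 163. The part of these markers in the channel gene results was not tested.

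Nerve and glia also express sodium channels. Over all genes tested, 20.1% were called in the mean of the sets and 18.8% in set 2. Of 7 tested neural and glial markers 0 rose and 1 fell in the mean of the sets, and their summed RPKM was 76.5 to 85.3 in Cop1 deletion islets, against 80.8 to 83.1 in controls of set 1. In set 2 it was 27.6 to 38.7 in Cop1 deletion islets, against 44.6 to 54.4 in controls, where 1 marker rose and 1 fell. The sum in the Etv1/4/5 group was 93.2 to 113 RPKM, above both other groups of set 1, and in the Etv4/5 group 43.2 to 55.0 RPKM.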

How the data were processed

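The deposited table holds RPKM values, which the authors computed. The build listed is mm9 (per the submitters' processing notes). Aligner, read counter, strand setting and gene models were not given in the sources used here. Libraries were assigned by the sample number in their title and 22 of 24 columns were used. A further 2 columns could not be placed, since 1 number stands in 2 titles and 1 in none. Replicates are numbered in accession order. Nothing says whether replicates are separate mice or pools, so p-values measure only the spread between these libraries. Symbols came from GRCm38.p6 and matched 24998 genes, leaving 3061 without.

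The 14342 genes that reached 1 RPKM in 4 or more libraries entered the tests as log2(RPKM + 0.5), which understates changes of low genes. limma 3.58.1 (R 4.3.3, with the trend and robust options) fitted 1 mean for each of the 6 groups, so all libraries share an estimate of the spread. Contrasts stayed within a set, or were the mean or difference of such contrasts. Tests were 2-sided and p-values were adjusted over all genes tested. The procedure was tested on simulated data. RPKM keeps no read counts. From steps in low values, depth relative to the deepest library ranged over 0.331 to 0.526 (set 1) and 0.758 to 1 (set 2), and summed RPKM was 524289 to 682560.

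The members and gene lists were chosen with earlier results of these data known. By rule, every library value is given for members called in a comparison with a group mean of at least 1 RPKM, group values for other tested members, and the highest value for low ones. From each other list at most 4 called genes per comparison are named. Scn2a, Cacna1f, Cacnb4, Cacng3, Gm13629, Lrtm2, Dcp1a and Dcp1b were detailed after their values were seen. Some genes of the channel family and of the lists are counted but not reported here by name. Alternatives changed the scaling, pseudocount, filter, variance model, library weights or libraries used.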

Additional observations from a re-analysis of the deposited data

Results flagged for a closer look

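Each group of 4 libraries was examined for a library far from the other 3, over the 20 tested channel genes, which makes 80 groups, and 8 were found. Chance alone gives about 1 in 20. The Scn3a value of set 2 control replicate 4 was 4.23 RPKM, against 2.19 to 2.46 in the other controls. Without it, the Scn3a change of Cop1 deletion in set 2 was 1.96 (limma adjusted p = 4.5e-06). That library also had the lowest Cacnb2 value of the controls, 5.17 RPKM, against 7.76 to 8.21 in the others. The Cacna1d value of set 2 Cop1 deletion replicate 2 was 8.14 RPKM, against 15.4 to 16.1 in the others of its group. Set 2 Etv4/5 replicate 4 had a Cacnb2 value of 10.4 RPKM, against 9.47 to 9.57. Cacna1b stood at 1.45 RPKM in set 2 control replicate 1, against 1.11 to 1.15 in the others. Cacng4 stood at 2.29 RPKM in set 1 Etv1/4/5 replicate 1, against 1.92 to 1.97. Scn8a stood at 2.34 RPKM in set 1 Etv1/4/5 replicate 3, against 2.20 to 2.22, and at 2.71 RPKM in set 2 control replicate 2, against 2.26 to 2.31.

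The Cop1 deletion effect differed between the sets by limma's test of the difference, set 1 minus set 2, for 2.83% of all genes tested. Among the channel genes, the genes that overlap them and the lists of other channel and exocytosis genes and modulators, it was 0.36 for Cacna1f with no filter on low values (adjusted p = 0.0085), 0.79 for Kcnk16 (0.014), 0.47 for Abcc8 (0.026), -0.45 for Trpm4 (0.028) and -1.31 for Lrtm2 (0.0053).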

How the results depend on the processing

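Over 34 alternatives, 0 of the 160 pairs of a tested member and a comparison reversed a called direction. Scn3a was called in the mean, in set 1 and in set 2 under all 34. The number of channel genes called in Cop1 deletion was 4 in the mean, 3 in set 1 and 2 in set 2. In the mean it was 7 with library weights, 7 with no filter and 1 (Scn3a) with the compared groups fitted alone. In set 1 it was 9 with library weights. In set 2 it was 8 with library weights, 4 with no filter, 1 with equal total RPKM, 1 with a filter at 2 RPKM, 1 with set 2 fitted alone, and 4 both with Xist-positive libraries and without the pair that lay apart. The difference between sets gave 5 calls with library weights and 1 with no filter. Against control, the Etv1/4/5 group gave 8 with library weights, 3 with set 1 alone, 1 with equal total RPKM, and 2 both with Xist-positive set 2 libraries and without the pair. Against Cop1 deletion it gave 3 with library weights, 2 with set 1 alone, and 1 each with no filter, Xist-positive libraries and without the pair. The Etv4/5 group gave, against control, 9 with library weights, 4 with equal medians, 1 at 2 RPKM, 4 with Xist-positive libraries and 6 without the pair, and against Cop1 deletion 4 with library weights and 1 with no filter. Called modulators were 11 with library weights and 3 with compared groups alone, other excitability channels 15, and 5 both with Xist-positive libraries and with compared groups alone, and exocytosis genes 11 with library weights. Counts of all genes are given below for equal total RPKM only. The numbers here and for single libraries left out thus do not show whether channel genes moved apart from other genes. The cause was not tested.

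Leaving out 1 library gave 3 to 6 calls in the mean, 2 to 3 in set 1, 1 to 5 in set 2, 0 to 1 for the difference, 0 to 1 for the Etv1/4/5 group against control and 0 to 1 against Cop1 deletion, 2 to 6 for the Etv4/5 group against control and 0 to 0 against Cop1 deletion. It gave 4 to 7 modulators, 5 to 12 other channels (5 without set 1 Cop1 deletion replicate 4) and 3 to 6 exocytosis genes. Cacng7 was called in the Etv1/4/5 group against control without set 2 Cop1 deletion replicate 1 (limma adjusted p = 0.040).

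Scaling to equal total RPKM moved the median of all genes to 0.12 in set 1 and -0.13 for the Etv1/4/5 group against Cop1 deletion. With it, 1121 genes rose and 256 fell in set 1, against 580 and 615 as deposited. In set 2 it was 840 and 1636 against 1303 and 1399, in the mean 1490 and 839 against 1372 and 1505, and for the Etv1/4/5 group against Cop1 deletion 238 and 1390 against 523 and 386. The summed calcium pore genes were 35.4 in the Etv1/4/5 group and 38.8 in Cop1 deletion islets. No paired analysis was possible because replicate numbers are accession order and pair no libraries. Read counts are unknown, so the counting error of low values is unknown.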
